A study of Homo sapiens with 12 samples.

Results

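The nuclear genes for subunits of respiratory complexes I, II and III were examined in hTERT-RPE1, an immortal line derived from human retinal pigment epithelium by adding telomerase. Members were the rows of the expression table whose gene symbol belongs to the NDUFA, NDUFB, NDUFC, NDUFS or NDUFV series, NDUFAB1, the 4 SDH genes, CYC1 and 8 UQCR genes. The rule matched 53 rows and, with the row of the highest mean kept for each symbol, 51 genes of the 53361 rows in the table: 38 of complex I, 4 of complex II and 9 of complex III. All 51 had at least 1 FPKM (fragments mapped to a gene, divided by its transcript length and by all mapped fragments) in all 12 libraries, so none was lost to a filter on low values.

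The study set 3 treatments against untreated cells, with 3 libraries in each of the 4 groups. Reversine, an inhibitor of the mitotic kinase Mps1, was given at 0.5 µM for 24 h and the cells were collected 48 h after it was washed out. Bafilomycin A1 (BafA1), an inhibitor of the proton pump of lysosomes, was given at 0.1 µM for 6 h. MG132, an inhibitor of the proteasome, was given at 1 µM for 24 h. Untreated hTERT-RPE1 cells were the control, with no vehicle or time named for them. All groups are 1 line immortalised with telomerase, and the labels name no separate cultures behind replicates, so each p-value measures only the spread between libraries, which may be technical.

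Complexes I, II and III form the first stretch of the respiratory chain in the inner mitochondrial membrane. Complex I takes electrons from NADH through a matrix arm of flavin and iron-sulphur subunits and passes them to ubiquinone while its membrane arm pumps protons. Complex II (succinate dehydrogenase) feeds ubiquinone from succinate and pumps none, and complex III passes electrons from reduced ubiquinone to cytochrome c. Complexes I and III also hold subunits made from mitochondrial DNA, whereas complex II is made from nuclear genes alone. In retinal pigment epithelium this machinery supports high oxidative metabolism.

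Replicates differed in composition. Total FPKM ran between 962891 and 2057720 per library, and read counts are unknown. Relative to each gene's mean, 4 libraries (MG132 2, MG132 3, reversine 1 and BafA1 3) had values that dropped as transcript GC content increased, with slopes between −0.489 and −0.0965 on the log2 scale per 10 percentage points, against slopes between 0.0989 and 0.228 in the other 8 libraries, all 3 controls among them. Rows listed at 0 numbered 10150 in MG132 2, 9689 in MG132 3 and 9118 in control 3, against 889 to 4240 elsewhere, and the shortest transcript above 0 was 75 nt long in these 3 libraries and 52 to 60 nt in the others. Of 12 markers of pigment epithelium, 3 had a mean under 1 FPKM in control and 2 in each treated group. RPE65 was at 0.04 to 0.06 FPKM and TTR at 0.41 to 0.64 FPKM in all 12 libraries, while MITF, OTX2, KRT8 and KRT18 were present. The summed level of the 12 pigment epithelium markers was 1305 to 1580.3 FPKM after reversine, 1156 to 1281 after BafA1, 481 to 737 after MG132 and 1244 to 1406 in control. Of the 10 tested markers, 2, KRT8 and KRT18, were lower after MG132 (limma adjusted p = 0.00427 and 0.000172), beside 7.67% of all tested genes. Lists of 6 genes each for blood, neuron, endothelium and other epithelium summed to at most 19.8, 43.5, 7.40 and 71.3 FPKM in any library. After MG132, 1 of 3 tested neuron markers and 1 of 5 tested other epithelium markers were lower, beside the same 7.67%. The part of these markers in the results was not tested.

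In control cells the genes of complex III stood at a median of 129 FPKM, those of complex I at 94.04 FPKM and those of complex II at 53.7 FPKM. The highest level in complex I was that of NDUFS8, with a control mean of 316 FPKM, and the lowest that of NDUFA5, at 9.37 FPKM. In complex II the mean levels ran between 46.7 FPKM for SDHB and 141 FPKM for SDHA, and in complex III between 64.4 FPKM for UQCRFS1 and 385 FPKM for UQCRC1. FPKM is a level per transcript length, so levels of different genes can be set side by side. The comparison is rough, because the unit was inferred, the libraries differed in their trend with GC content and these are means over libraries. Summed over its 38 genes, complex I held 3836 ± 578 FPKM after reversine, 3852 ± 273 after BafA1, 4734 ± 912 after MG132 and 4637 ± 540 in control (SD, n = 3 each). Without NDUFA4, which is now counted with complex IV, the other 37 genes held 3698 ± 619 FPKM after reversine, 3766 ± 231 after BafA1, 4114 ± 488 after MG132 and 4548 ± 529 in control, so the MG132 mean is above control only with NDUFA4. Complex II held 292 ± 6.18 FPKM after reversine, 294 ± 31.3 after BafA1, 281 ± 45.1 after MG132 and 295 ± 10.7 in control. Complex III held 1305 ± 124.8 FPKM after reversine, 1353 ± 72.3 after BafA1, 1383 ± 146 after MG132 and 1468 ± 38.8 in control. These sums were not tested.

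MG132 gave the only calls among the 51 genes against control. A call is an adjusted p (Benjamini-Hochberg over 30712 tested genes) under 0.05 in limma's test on log2(FPKM + 1). After MG132, 6 genes fell, namely SDHA, NDUFA9, NDUFB10, CYC1, NDUFB7 and NDUFA7, and 2 rose, NDUFA4 and NDUFS1. These 8 genes are 15.7% of the 51, beside 14.8% of all tested genes, so the share called is near the background. By direction, 11.8% of the 51 were lower and 3.92% higher, beside 7.67% and 7.14% of all tested genes. Without the test, all 3 MG132 libraries lay below all 3 controls for 15 genes (29.4%, against 13.5% of all tested genes) and above them for 10 (19.6%, against 20.3%). The median log2 difference was 0.07 over the 51 genes and 0.04 over all tested genes. It was −0.01 over 8068 genes with at least 5 FPKM in all libraries. In these bulk libraries, fewer cells expressing a gene and less RNA per cell cannot be told apart.

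**Figure D1:**
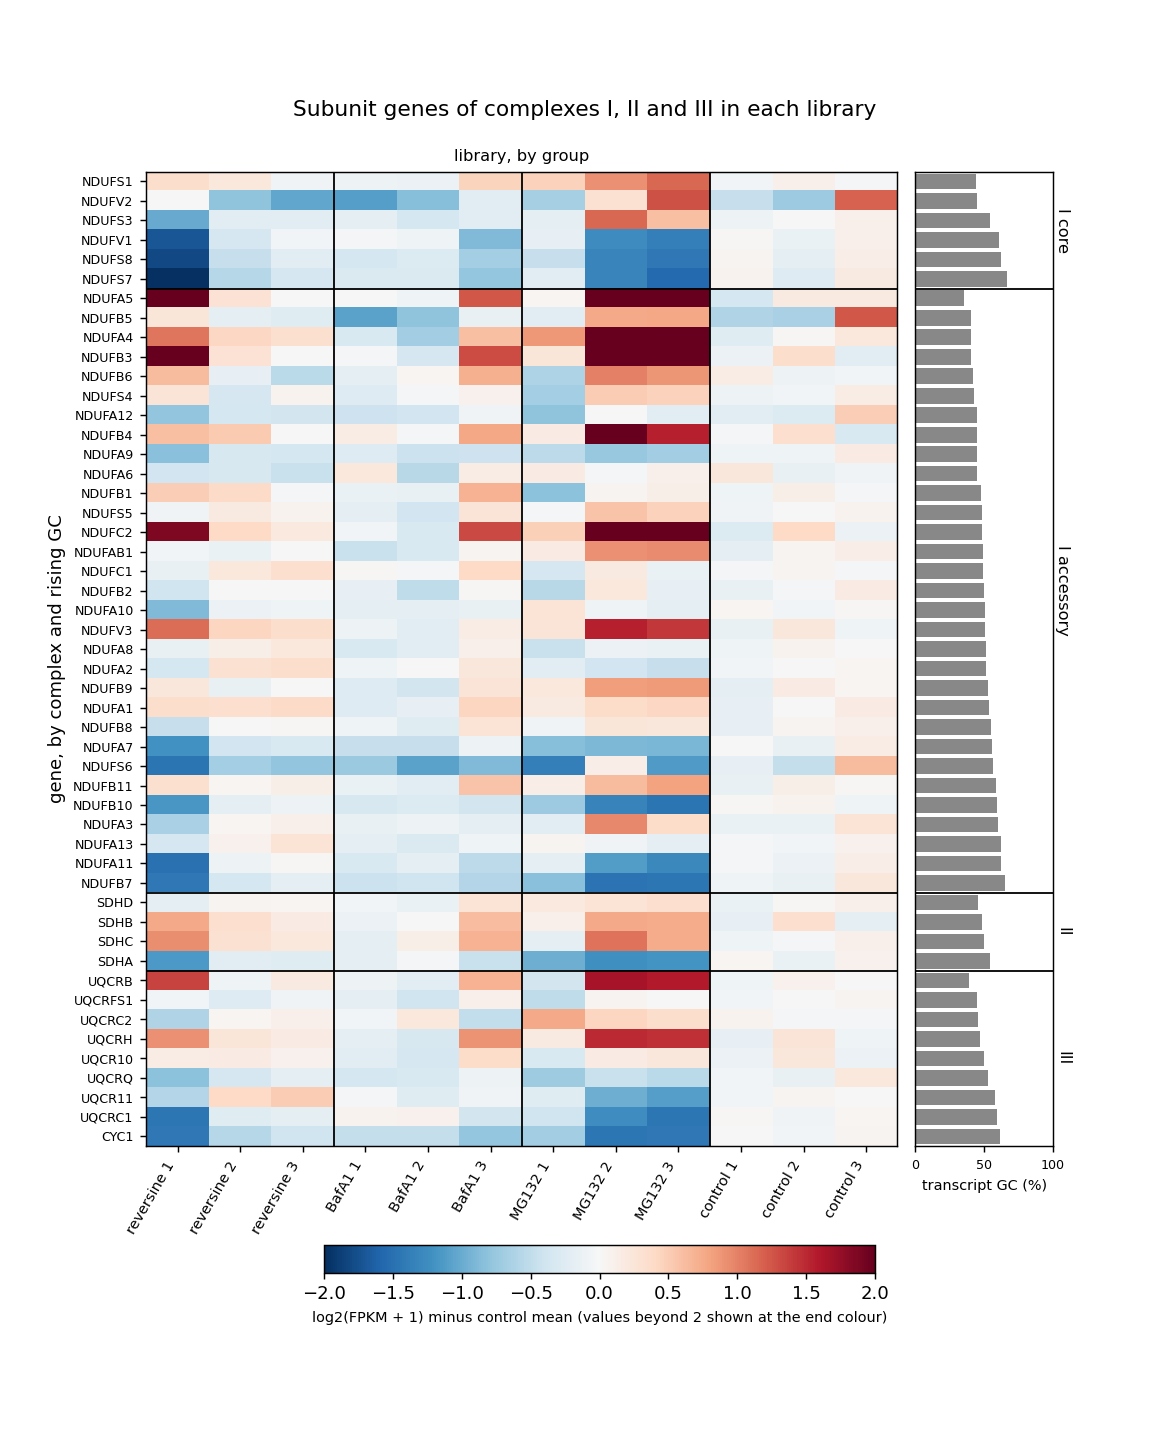
Log2(FPKM + 1) of each gene shown minus its control mean, with libraries in columns (reversine, BafA1, MG132, control) and genes in rows by complex and by rising transcript GC content, which the bars on the right give in percent. Reversine 1, MG132 2 and MG132 3, and more weakly BafA1 3, are red at genes of low GC content and blue at genes of high GC content.

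Promoters of 5 of the 8 genes called after MG132 are shown, 3 that fell and both that rose, because respiratory subunit genes are known for binding sites of NRF1, ETS factors such as GABP, and YY1 near their starts. The windows come from RefSeq (GRCh38.p14) and run from 200 bases before the gene's start over the first 30 bases after it, 5′ to 3′. Capitals mark matches, on either strand, to GCGCANGCG (NRF1), CCGGAAG (ETS) or AANATGGCG (YY1).
SDHA (chr5:218120-218349, plus strand): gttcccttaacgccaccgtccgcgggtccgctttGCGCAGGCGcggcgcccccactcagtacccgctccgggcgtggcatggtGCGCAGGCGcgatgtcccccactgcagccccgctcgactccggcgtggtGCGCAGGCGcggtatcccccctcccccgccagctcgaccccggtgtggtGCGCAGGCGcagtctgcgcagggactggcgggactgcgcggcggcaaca
NDUFA9 (chr12:4648914-4649143, plus strand): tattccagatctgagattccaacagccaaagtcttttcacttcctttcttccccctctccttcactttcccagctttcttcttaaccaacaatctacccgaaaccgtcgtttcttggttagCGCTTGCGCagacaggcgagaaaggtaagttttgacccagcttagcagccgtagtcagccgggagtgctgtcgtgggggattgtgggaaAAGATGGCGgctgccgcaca
NDUFB7 (chr19:14572037-14572266, minus strand): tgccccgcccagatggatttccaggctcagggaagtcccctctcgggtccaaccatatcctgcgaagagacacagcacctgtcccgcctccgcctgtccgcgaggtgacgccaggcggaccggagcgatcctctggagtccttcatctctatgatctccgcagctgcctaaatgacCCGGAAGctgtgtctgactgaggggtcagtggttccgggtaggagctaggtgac
NDUFS1 (chr2:206159415-206159644, minus strand): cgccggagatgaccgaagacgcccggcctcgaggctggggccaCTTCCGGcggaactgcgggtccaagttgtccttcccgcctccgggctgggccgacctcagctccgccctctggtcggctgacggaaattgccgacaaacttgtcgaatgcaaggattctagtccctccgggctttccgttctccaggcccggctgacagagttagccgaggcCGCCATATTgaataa
NDUFA4 (chr7:10940124-10940353, minus strand): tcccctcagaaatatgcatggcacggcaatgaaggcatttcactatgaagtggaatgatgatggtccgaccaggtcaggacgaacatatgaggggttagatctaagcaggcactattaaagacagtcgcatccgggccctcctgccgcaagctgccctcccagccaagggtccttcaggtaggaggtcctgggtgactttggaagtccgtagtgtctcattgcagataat

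SDHA holds 4 matches to the NRF1 letters, which begin 166, 117, 68 and 19 bases before the start, in a window of 74.8% GC. NDUFA9 has 1 NRF1 match and 1 YY1 match, NDUFB7 has 1 ETS match, and NDUFS1 has 1 ETS and 1 YY1 match. NDUFA4 has no match in its window, which says only that these letters are not there. Of the called genes not shown, NDUFB10 has no match and NDUFA7 has 1 YY1 match, and CYC1 had no entry. RefSeq windows of 300 bases (250 before the start) were found for 43 of the 51 genes. Of these 43, 34.9% held the NRF1 letters, against 7.52% of all 35116 promoters in the table, 23.3% held the ETS letters, against 10.3%, and 32.6% held the YY1 letters, against 3.19%. At least 1 of them stood in 65.1% of the 43 windows, against 18.4% of all. The 43 are coding genes, whereas the 35116 promoters were neither limited to coding genes nor matched for GC content. The part of these gaps that is particular to respiratory genes was not tested.

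After reversine none of the 51 genes was called by limma, beside 2.09% of all tested genes. An unadjusted p under 0.05 was reached by 7 of the 51, beside 3631 of the 30712 tested genes. The smallest adjusted p was 0.164, for NDUFA9. All 3 reversine libraries lay below all 3 controls for 15 genes (29.4%, against 10.1% of all tested genes) and above them for 4 (7.84%, against 9.97%), namely NDUFA1, NDUFA4, NDUFV3 and SDHC. The median log2 difference was −0.06, against 0.09 over all tested genes and −0.10 over the 8068 genes with at least 5 FPKM in all libraries. With median-ratio scaling of the libraries the median of the 51 genes was 0.06. The 95% interval of the difference lay within 1 log2 unit of 0 for 24 genes and reached beyond it for the other 27. The lowest values were those of NDUFS7 (−1.06), NDUFS6 (−0.98) and NDUFS8 (−0.83), and the highest those of NDUFB3 (0.83), NDUFC2 (0.82) and NDUFA5 (0.79).

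After BafA1 limma called none either, beside 0.264% of all tested genes. Of the 51 genes, 2, NDUFA9 among them, had an unadjusted p under 0.05, beside 2187 of the 30712 tested genes. All 3 BafA1 libraries lay below all 3 controls for 12 genes (23.5%, against 7.42% of all tested genes) and above them for 0 genes, against 15.7%. The median log2 difference was −0.12, against 0.14 over all tested genes and −0.05 over the 8068 genes with at least 5 FPKM in all libraries. Of the 51 values, 35 were below 0. The lowest were those of NDUFS6 (−0.90), NDUFV2 (−0.73) and NDUFB5 (−0.67). The 95% interval lay within 1 log2 unit of 0 for 34 genes after BafA1 and for 17 after MG132.

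**Figure D2:**
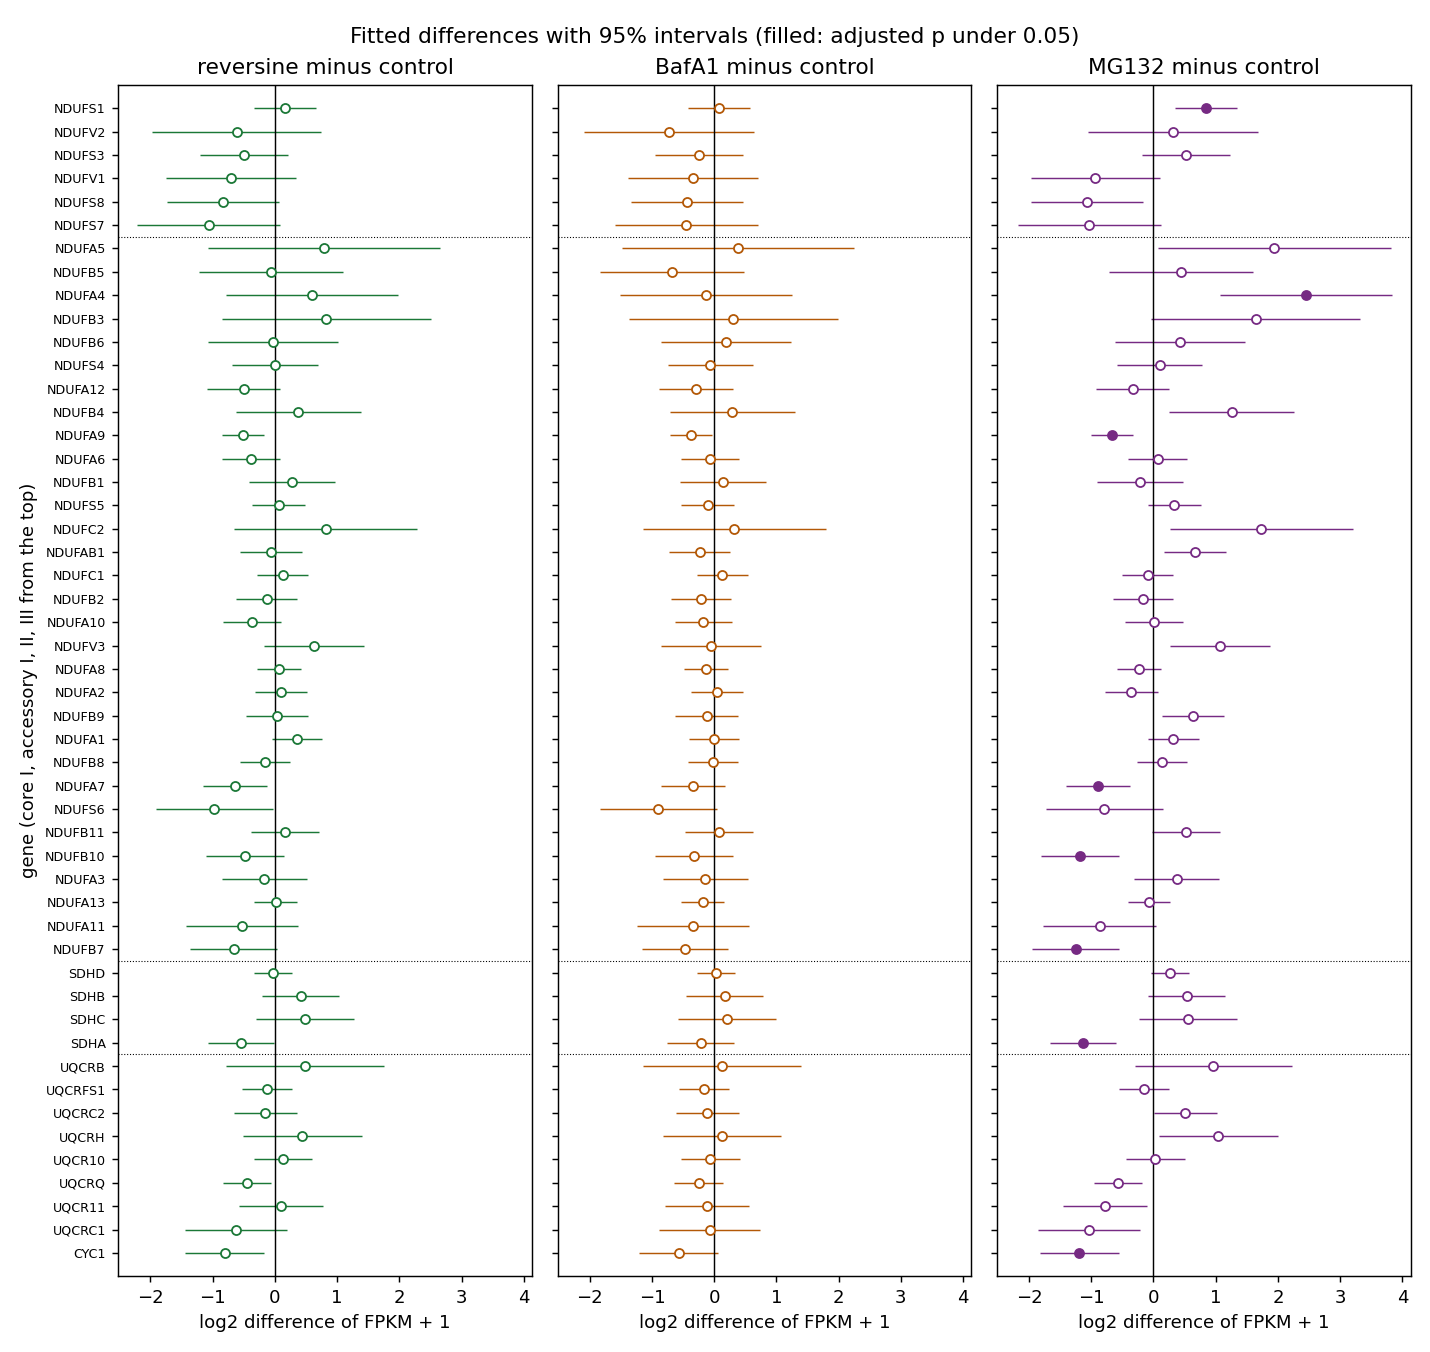
Fitted log2 difference of FPKM + 1 from control for each gene shown, with 95% intervals, after reversine, BafA1 and MG132; filled points have an adjusted p under 0.05. Filled points appear after MG132 only, 6 to the left of 0 and 2 to the right, and the widest intervals belong to NDUFA5 and NDUFB3.

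The core of complex I that nuclear genes encode has 7 subunits, of which 1 was called. NDUFS1, the largest subunit of the NADH-oxidising module and a carrier of iron-sulphur clusters, had 36.9, 33.6 and 27.4 FPKM after reversine, 26.7, 26.5 and 39.4 after BafA1, 40.04, 55.2 and 65.1 after MG132, and 27.6, 30.9 and 27.8 in control. All 3 MG132 libraries were above all controls, and the other treatments overlapped them. Its log2 difference after MG132 was 0.85 ± 0.22 (SE, limma adjusted p = 0.0321). No other core subunit was called.

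NDUFV1, which binds the flavin that accepts electrons from NADH, had 93.5, 243 and 297 FPKM after reversine, 302, 289 and 166 after BafA1, 274, 128 and 119 after MG132, and 313, 280.5 and 332 in control. The low values were those of reversine 1, BafA1 3, MG132 2 and MG132 3, and the remaining treated libraries had 243 to 302 FPKM. The same 4 libraries held the lowest values of NDUFS7 and NDUFS8, 2 iron-sulphur subunits on the path to ubiquinone. NDUFS7 had 53.6, 178 and 211 FPKM after reversine, 217, 217 and 155 after BafA1, 228, 105 and 89.5 after MG132, and 278, 222 and 301 in control. NDUFS8 had 89.4, 229 and 270.1 FPKM after reversine, 248, 261 and 196 after BafA1, 229, 125.49 and 117 after MG132, and 326, 277 and 346 in control. All reversine and BafA1 libraries were below the controls for both genes, and all MG132 libraries for NDUFS8. The log2 differences from control of NDUFS7 were −1.06 ± 0.51 after reversine, −0.45 ± 0.51 after BafA1 and −1.03 ± 0.51 after MG132, and those of NDUFS8 were −0.83, −0.43 and −1.07, each ± 0.40, with limma adjusted p of 0.0967 or more.

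The other core genes did not pass the test either. NDUFV2, an iron-sulphur partner of NDUFV1, had 84.6, 48.04 and 40.5 FPKM after reversine, 38.8, 46.1 and 71.98 after BafA1, 53.2, 105 and 206 after MG132, and 61.4, 50.8 and 192 in control. Control 3 and MG132 3 stood far above their groups, and all treatments overlapped the controls. NDUFS3, a core subunit of the matrix arm, had a log2 difference of 0.52 after MG132, with overlap (limma adjusted p = 0.25).

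Among the 31 genes taken as accessory subunits of complex I, which carry no redox centre, 4 fell after MG132, and the 1 that rose was NDUFA4, now counted with complex IV. NDUFB7, a subunit of the membrane arm, had 113, 239.9 and 268 FPKM after reversine, 229, 232 and 204 after BafA1, 172, 109.7 and 113 after MG132, and 291, 278 and 359 in control. Every treated library was below every control, most of all reversine 1, MG132 2 and MG132 3. The log2 difference after MG132 was −1.25 ± 0.31 (limma adjusted p = 0.0248), against −0.66 ± 0.31 after reversine (adjusted p = 0.439) and −0.47 ± 0.31 after BafA1 (adjusted p = 0.733).

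NDUFB10, which also lies in the membrane arm, fell as well. NDUFB10 had 121, 240.01 and 253 FPKM after reversine, 216, 223 and 209.7 after BafA1, 163, 107 and 97.4 after MG132, and 275, 284 and 255 in control, and no treated library reached the lowest control. The log2 difference after MG132 was −1.18 ± 0.28 (limma adjusted p = 0.0208).

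NDUFA9, a nucleotide-binding subunit at the joint of the matrix and membrane arms, has the highest median transcript length of the 51 genes, 4502.5 nt. This is the midpoint of 2 transcripts of 642 and 8363 nt. NDUFA9 had 98.03, 141 and 137 FPKM after reversine, 148, 130.1 and 132 after BafA1, 122, 103 and 108 after MG132, and 166, 166 and 199 in control. All 9 treated libraries were below the 3 controls, and the spread within each group was small. The log2 difference was −0.67 ± 0.15 after MG132 (limma adjusted p = 0.0176), −0.51 ± 0.15 after reversine and −0.37 ± 0.15 after BafA1. NDUFA7, an accessory subunit of the matrix arm, had 42.03, 75.4 and 80.4 FPKM after reversine, 71.6, 71.9 and 91.9 after BafA1, 54.3, 52.9 and 52.1 after MG132, and 99.1, 89.5 and 109.6 in control. The MG132 libraries lay within a few FPKM of each other, MG132 1 included, and below every control. The log2 difference after MG132 was −0.89 ± 0.23 (limma adjusted p = 0.0297).

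NDUFA4 rose most. It was named as a complex I subunit and is now counted with complex IV, and the RefSeq table lists it as COXFA4. It had 185, 117 and 110.2 FPKM after reversine, 71.3, 54.1 and 134 after BafA1, 162, 999.7 and 699.98 after MG132, and 74.6, 89.8 and 101.6 in control. The reversine and MG132 libraries were above all controls, but MG132 2 and MG132 3 stood far above MG132 1. The log2 difference after MG132 was 2.45 ± 0.61, with a 95% interval between 1.07 and 3.83 (limma adjusted p = 0.0268). Its HIF-linked relative NDUFA4L2 had 5.14, 2.57 and 32.8 FPKM after MG132 and 4.33, 3.59 and 9.97 in control (limma adjusted p = 0.633).

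Several further accessory genes had large differences that were not called. NDUFA5, a matrix-arm subunit with median transcripts of 3754.5 nt and the lowest GC content of the 51 (35.7%), had 42.6, 11.5 and 9.12 FPKM after reversine, 9.20, 8.63 and 23.1 after BafA1, 9.51, 73.4 and 76.8 after MG132, and 7.01, 10.54 and 10.6 in control. NDUFB3, of the membrane arm, had 81.01, 20.8 and 16.7 FPKM after reversine, 16.3, 13.2 and 43.1 after BafA1, 20.1, 82.3 and 97.1 after MG132, and 15.4, 21.6 and 14.2 in control. NDUFC2, also of the membrane arm, had 184, 66.1 and 57 FPKM after reversine, 47.9, 40.3 and 127 after BafA1, 69.7, 242 and 280.2 after MG132, and 40.95, 66.2 and 45.8 in control. In all 3 genes the high libraries were reversine 1, BafA1 3, MG132 2 and MG132 3, and only for NDUFC2 were all MG132 libraries above the controls, MG132 1 just so. These 3 genes had the highest log2 differences after reversine (0.79, 0.83 and 0.82) and after BafA1 (0.38, 0.31 and 0.32). After MG132 they stood at 1.94 ± 0.83, 1.64 ± 0.75 and 1.73 ± 0.65, with limma adjusted p of 0.114, 0.129 and 0.0974. NDUFC2 shares sequence with the read-through gene NDUFC2-KCTD14, which had 3.04, 75.5 and 40.1 FPKM after MG132 and 6.48, 4.16 and 3.11 FPKM in control, and reads could be divided between the pair.

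NDUFAB1, the mitochondrial acyl carrier protein, which also serves lipoic acid synthesis, had 80.8, 76.5 and 84.01 FPKM after reversine, 61.3, 67.98 and 87.5 after BafA1, 94.1, 159 and 162 after MG132, and 73.2, 87.5 and 92.5 in control. The MG132 libraries were above all controls, MG132 1 only just, and the log2 difference of 0.67 ± 0.22 did not pass the test (limma adjusted p = 0.0722). NDUFS6, a zinc-binding accessory subunit, had 90.7, 156 and 146 FPKM after reversine, 151, 119 and 137 after BafA1, 97.3, 275 and 114 after MG132, and 223, 182 and 393 in control. It had the lowest log2 difference of the 51 genes after BafA1 (−0.90 ± 0.42, limma adjusted p = 0.49), with all reversine and BafA1 libraries below the controls. NDUFB5, a membrane-arm subunit, had 52.1, 38.6 and 37.1 FPKM after reversine, 20.4, 24.8 and 39.8 after BafA1, 38.1, 74.9 and 75.6 after MG132, and 28.6, 27.8 and 106 in control. Control 3 was again high, as for NDUFV2 and NDUFS6, and NDUFB5 overlapped the controls in every treatment.

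Of the accessory genes not yet described, NDUFV3, NDUFB9, NDUFB11 and NDUFA1 had all MG132 libraries above the controls, and NDUFA11, NDUFA2 and NDUFA8 had them below, with limma adjusted p between 0.0748 (NDUFV3, log2 difference 1.07) and 0.312 (NDUFA8, −0.23). MG132 1 was only just above the highest control for NDUFV3 (12.18 against 11.98 FPKM), NDUFB11 (41.35 against 41.15) and NDUFA1 (70.51 against 70.07). For NDUFA8, MG132 2 was just below the lowest control (55.32 against 56.38). NDUFB4 had a log2 difference of 1.26 after MG132 with overlap (adjusted p = 0.0845). NDUFA3, NDUFA6, NDUFA10, NDUFA12, NDUFA13, NDUFB1, NDUFB2, NDUFB6, NDUFB8, NDUFC1, NDUFS4 and NDUFS5 overlapped the controls after MG132, with log2 differences between −0.33 and 0.43. The 95% interval after MG132 ran between −0.41 and 0.27 for NDUFA13 and between −0.27 and 0.54 for NDUFB8.

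In complex II only SDHA was called. SDHA, the flavoprotein that oxidises succinate, had 62.9, 119.5 and 119 FPKM after reversine, 123.12, 139 and 104 after BafA1, 70.9, 59.8 and 60.7 after MG132, and 144, 129 and 150.3 in control. The MG132 libraries lay close together and far below the controls, MG132 1 included, and the reversine libraries were below the controls as well. The log2 difference after MG132 was −1.13 ± 0.24, with a 95% interval between −1.67 and −0.60 (limma adjusted p = 0.0121), the smallest adjusted p of the 51 genes. SDHA has transcribed copies whose reads can be confused with its own: SDHAP1 had 51.5, 25.6 and 21.8 FPKM after MG132 and 36.6, 36.6 and 39.7 in control, and SDHAP2 averaged 17.5 FPKM over the 12 libraries, so the level of SDHA is uncertain.

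The other 3 genes of complex II were not called. SDHB, the iron-sulphur subunit, had 78.7, 58.04 and 51.7 FPKM after reversine, 42.2, 46.3 and 70.97 after BafA1, 49.5, 78.8 and 77.5 after MG132, and 40.8, 58.6 and 40.6 in control. SDHC, a membrane anchor, had 98.02, 62.9 and 58.7 FPKM after reversine, 44.2, 54.98 and 83.1 after BafA1, 44.9, 109.5 and 85.8 after MG132, and 48.1, 50.2 and 54.4 in control. SDHD, the other anchor, had 49.8, 58.8 and 57.9 FPKM after reversine, 54.5, 51.1 and 68.8 after BafA1, 64.7, 68.3 and 71.7 after MG132, and 51.6, 57.3 and 60.8 in control. In these rows SDHD was above all controls after MG132 and SDHC after reversine, while SDHB overlapped the controls in all treatments. A second row under the symbol SDHD had 25.1, 3.30 and 4.52 FPKM after MG132 and 40.8, 22.2 and 31.9 in control. With both rows summed, the log2 difference of SDHD after MG132 was −0.16 (limma adjusted p = 0.512), so its direction depends on which rows are counted. The log2 differences after MG132 were 0.54 ± 0.27 for SDHB, 0.55 ± 0.35 for SDHC and 0.27 ± 0.14 for SDHD (limma adjusted p = 0.174, 0.277 and 0.175). The difference between SDHA and its partners was not tested.

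In complex III only CYC1 was called. CYC1 is cytochrome c1, the subunit that hands electrons to cytochrome c, and it had 75.9, 138 and 156 FPKM after reversine, 149, 149 and 121 after BafA1, 127, 75.1 and 76.1 after MG132, and 207, 198 and 214 in control. Every treated library was below every control, and the controls were close together. The log2 difference was −1.19 ± 0.28 after MG132 (limma adjusted p = 0.0209), −0.80 ± 0.28 after reversine (adjusted p = 0.253) and −0.57 ± 0.28 after BafA1 (adjusted p = 0.529).

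The 2 core proteins of complex III, UQCRC1 and UQCRC2, hold no redox centre, and neither was called. UQCRC1 had 140.3, 327 and 341 FPKM after reversine, 402, 409 and 298 after BafA1, 292, 162 and 140.1 after MG132, and 393, 367 and 395 in control. UQCRC2 had 84.7, 132 and 138 FPKM after reversine, 124, 149 and 91.2 after BafA1, 217, 174 and 164 after MG132, and 135, 127 and 124 in control. After MG132 all libraries were below the controls for UQCRC1 and above them for UQCRC2, with log2 differences of −1.03 ± 0.36 and 0.51 ± 0.22 that did not pass the test (limma adjusted p = 0.0831 and 0.12). UQCRFS1, the Rieske iron-sulphur protein, had 62.02, 53.8 and 61.2 FPKM after reversine, 55.8, 48.6 and 69.3 after BafA1, 44.9, 66.8 and 63.7 after MG132, and 61.7, 64.3 and 67.03 in control. It overlapped the controls after all 3 treatments, and its 95% intervals lay between −0.57 and 0.28 in all 3 comparisons. Of the small subunits, UQCRQ and UQCR11 had all MG132 libraries below the controls (log2 differences −0.57 and −0.77, limma adjusted p = 0.0572 and 0.1), whereas UQCRB, UQCRH and UQCR10 overlapped them (0.96, 1.04 and 0.03).

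**Figure D3:**
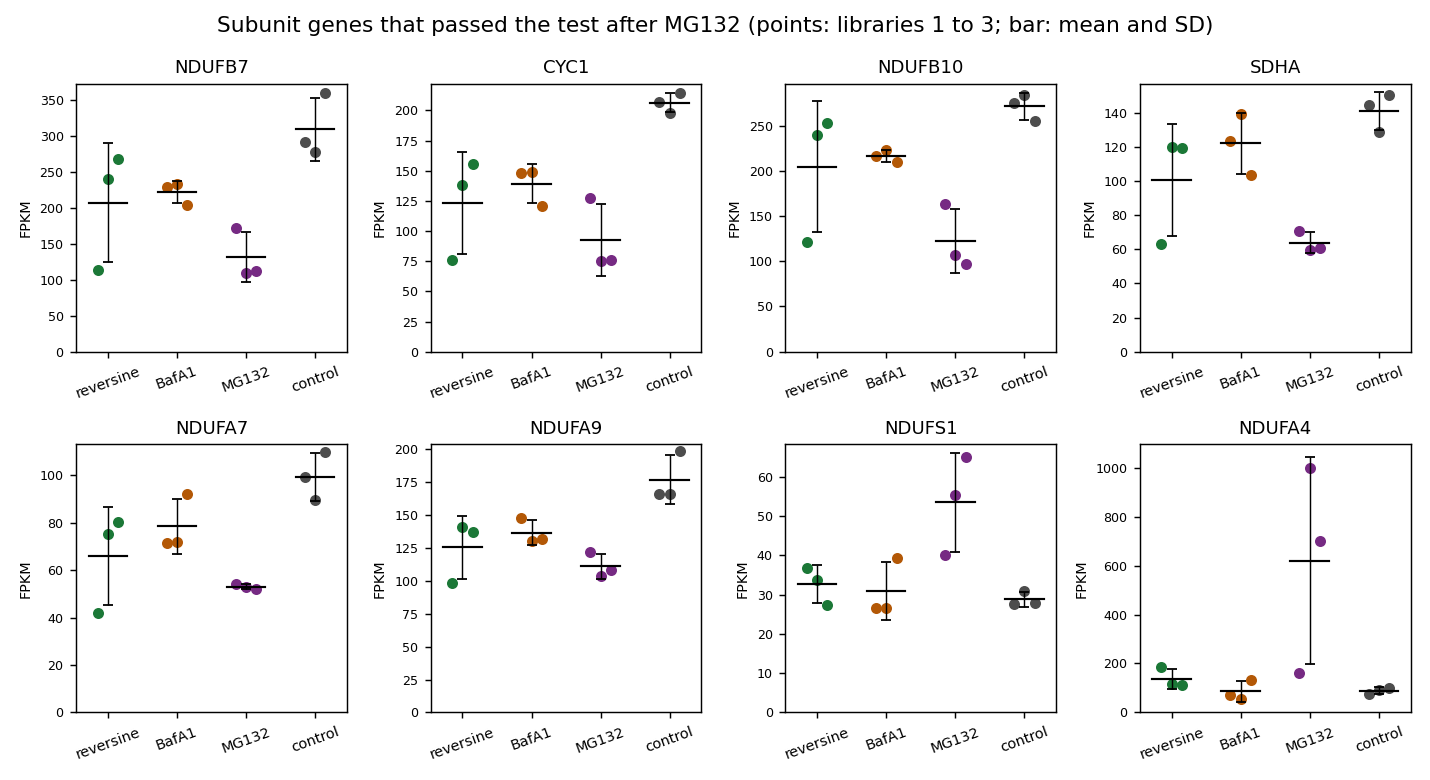
FPKM in each library for the 8 genes called after MG132, with reversine, BafA1, MG132 and control from left to right; points are libraries 1 to 3 and bars the mean and SD of 3. For NDUFA7 and SDHA the 3 MG132 points lie together, whereas for NDUFA4 MG132 2 and MG132 3 stand far above MG132 1.

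The 8 calls after MG132 depended on which libraries were fitted. Leaving out 1 library gave 2 calls without control 1, 3 without control 2 and 0 without control 3, and it gave 27 without MG132 1, 0 without MG132 2 and 0 without MG132 3. The background moved as well: without MG132 1 the 27 genes were 52.9% of the 51, beside 42.5% of all tested genes (12980 genes), and without MG132 2 or MG132 3 the calls over all genes came to 8.42% and 8.52%. There were 0 calls without the 3 libraries that list most rows at 0, a fit of 1 MG132 library against 2 controls in which 1.78% of all tested genes were called. SDHA stood there at −0.93 and NDUFA7 at −0.78 (limma adjusted p = 0.476 and 0.575). A correction of the libraries for their trends with GC and length gave 16 called genes (2 higher, 14 lower), which is 31.4% beside 22% of all tested genes. The same correction fitted on genes with at least 5 FPKM in all libraries gave 24 (13 higher, 11 lower), which is 47.1% beside 31.9%. In each of the 16 alternative settings the 8 genes kept their sign. For each of them all MG132 libraries lay on the same side of all controls. Leaving libraries out or changing the filter could thus not alter the sign, and only scaling or the corrections could. Without the 4 libraries in which values fell with GC content, which leaves MG132 1 alone against 3 controls, SDHA (−0.98), NDUFB10 (−0.73), CYC1 (−0.70), NDUFB7 (−0.84) and NDUFA7 (−0.86) were still called, and NDUFA4 (0.87), NDUFS1 (0.47) and NDUFA9 (−0.53) were not. In both fits with 1 MG132 library it was assumed to vary like those of the other groups.

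Between treatments, the only calls were for BafA1 against MG132, at a share below that of all tested genes. For reversine against BafA1 limma called none of the 51 genes, beside 1.23% of all tested genes. None had an unadjusted p under 0.05, beside 2295 of the 30712 tested genes. For reversine against MG132 limma called none either, beside 6.51%. There 10 of the 51 had an unadjusted p under 0.05, beside 9241 of the 30712. For BafA1 against MG132 limma called 3 of 51 (5.88%), beside 10.9% of all tested genes. One was higher after BafA1, beside 6.37%, and 2 were lower, beside 4.49%. The count was 0 when BafA1 1, BafA1 2, MG132 2 or MG132 3 was left out, and 5 without BafA1 3. Without MG132 1 it was 22 (43.1%, beside 60.2% of all tested genes). SDHA was higher on the log2 scale by 0.92 ± 0.24 after BafA1 (limma adjusted p = 0.0371), and NDUFA4 and NDUFAB1 were lower, with log2 differences of −2.58 ± 0.61 and −0.90 ± 0.22 (adjusted p = 0.0262 and 0.029).

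Within the 51 genes the differences went with GC content more than with median transcript length. The median transcript length ran between 407 nt for NDUFA3 and 4502.5 nt for NDUFA9, with a middle value of 801 nt. Transcripts of 1 gene can differ widely, from 369 to 13566 nt for SDHC, whose median is 460 nt. The median is thus a rough measure of length. Over the 51 genes, Spearman's rho between log2 difference and transcript length came to −0.11 for reversine, −0.14 for BafA1 and −0.03 for MG132. Called genes were found at both ends of the range, with NDUFB7 at 531 nt, NDUFA7 at 601 nt and NDUFB10 at 705 nt, and with NDUFA4 at 2130 nt, SDHA at 2148 nt, NDUFS1 at 2394 nt and NDUFA9. With GC content it came to −0.55 for reversine, −0.46 for BafA1 and −0.65 for MG132, beside −0.31, −0.25 and −0.43 over 8068 genes with at least 5 FPKM in all libraries. These points share their libraries and controls, so the values are descriptions. After MG132 the 26 genes at or above the median GC content of 50.1% had a median log2 difference of −0.60, and the 25 below it 0.43. By library, rho with GC content over the 51 genes was −0.71 in reversine 1, −0.61 in BafA1 3, −0.66 in MG132 2 and −0.72 in MG132 3, against −0.30 to 0.37 in the other 8. The part of this trend in the difference of any 1 gene was not tested. For MG132, rho was −0.51 after the correction for GC and length and −0.35 after the same correction fitted on well-expressed genes.

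**Figure D4:**
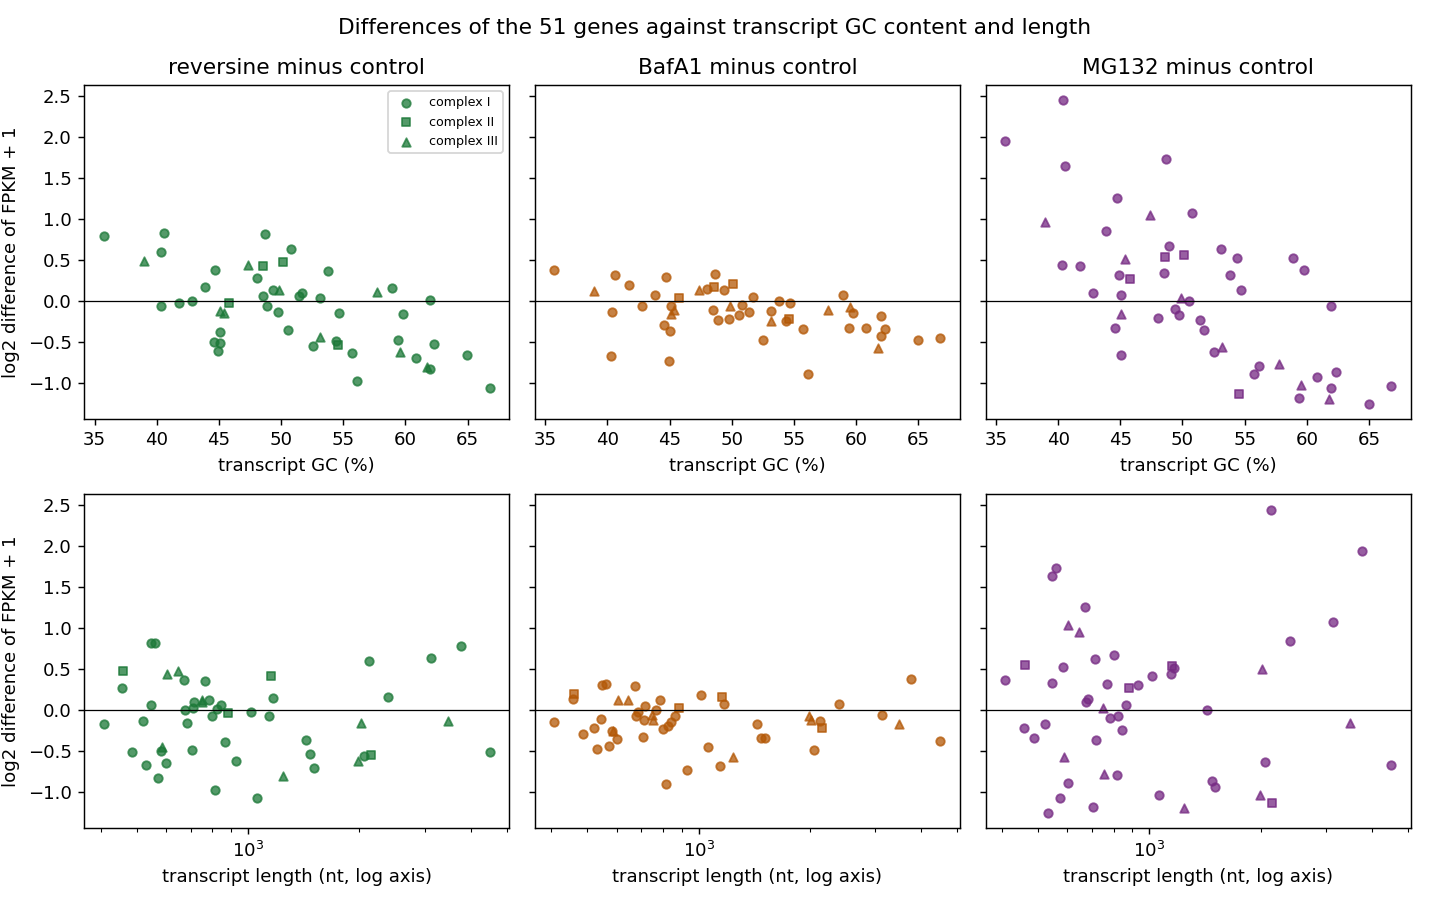
Log2 difference of FPKM + 1 from control for the 51 genes after reversine, BafA1 and MG132, against transcript GC content in percent (top) and transcript length in nt on a log axis (bottom), with symbols by complex. The points descend with GC content, most after MG132, and show no such slope with length.

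The subunits of complexes I and III that mitochondrial DNA encodes numbered 8 in the table. These genes share 1 genome and the same libraries, so calls among them are not independent of each other. After reversine 6 of 8 were higher and 0 lower, beside 0.801% higher and 1.29% lower of all tested genes, with a median log2 difference of 0.96, and after MG132 5 of 8 were higher (median 0.76), beside 7.14% of all tested genes. After BafA1 limma called none, and 2 of 8 had an unadjusted p under 0.05, beside 2187 of the 30712 tested genes. MT-ND1, a core subunit of the membrane arm of complex I, had 3394, 2409 and 2610.4 FPKM after reversine, 1669, 1383 and 1389.5 after BafA1, 2167, 2613 and 2372 after MG132, and 1162, 1249 and 1230.08 in control. All libraries of the 3 treatments were above all controls. The log2 difference was 1.19 after reversine and 0.97 after MG132 (limma adjusted p = 0.00212 and 0.00133). MT-CYB, the cytochrome b of complex III, had 2702, 2638 and 2809.9 FPKM after reversine, 2255, 1758 and 1426 after BafA1, 2616, 2307 and 1957 after MG132, and 1405, 1426 and 1457 in control, and rose by 0.93 and 0.67 (adjusted p = 0.0146 and 0.018). The reversine and MG132 libraries did not overlap the controls, and those of BafA1 did. MT-ND3 and MT-ND4L were called in no comparison against control. The count after reversine was 6 without the 4 libraries in which values fell with GC content, 2 without control 1, 3 without control 2, 3 without control 3 and 1 in a fit of reversine and control alone. It was 4 with either correction for GC and length and 1 without the 3 libraries that list most rows at 0. After MG132 it was 5 without those 4 libraries, 3 without any 1 of the controls, 2 without MG132 2, 2 and 3 with the corrections and 0 without the 3 libraries that list most rows at 0. Mitochondrial genes held 4.87% to 11.2% of the total FPKM after reversine, 2.66% to 4.17% after BafA1, 4.28% to 20.4% after MG132 and 2.92% to 5.61% in control. Whether the nuclear and mitochondrial sets differ from each other was not tested.

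**Figure D5:**
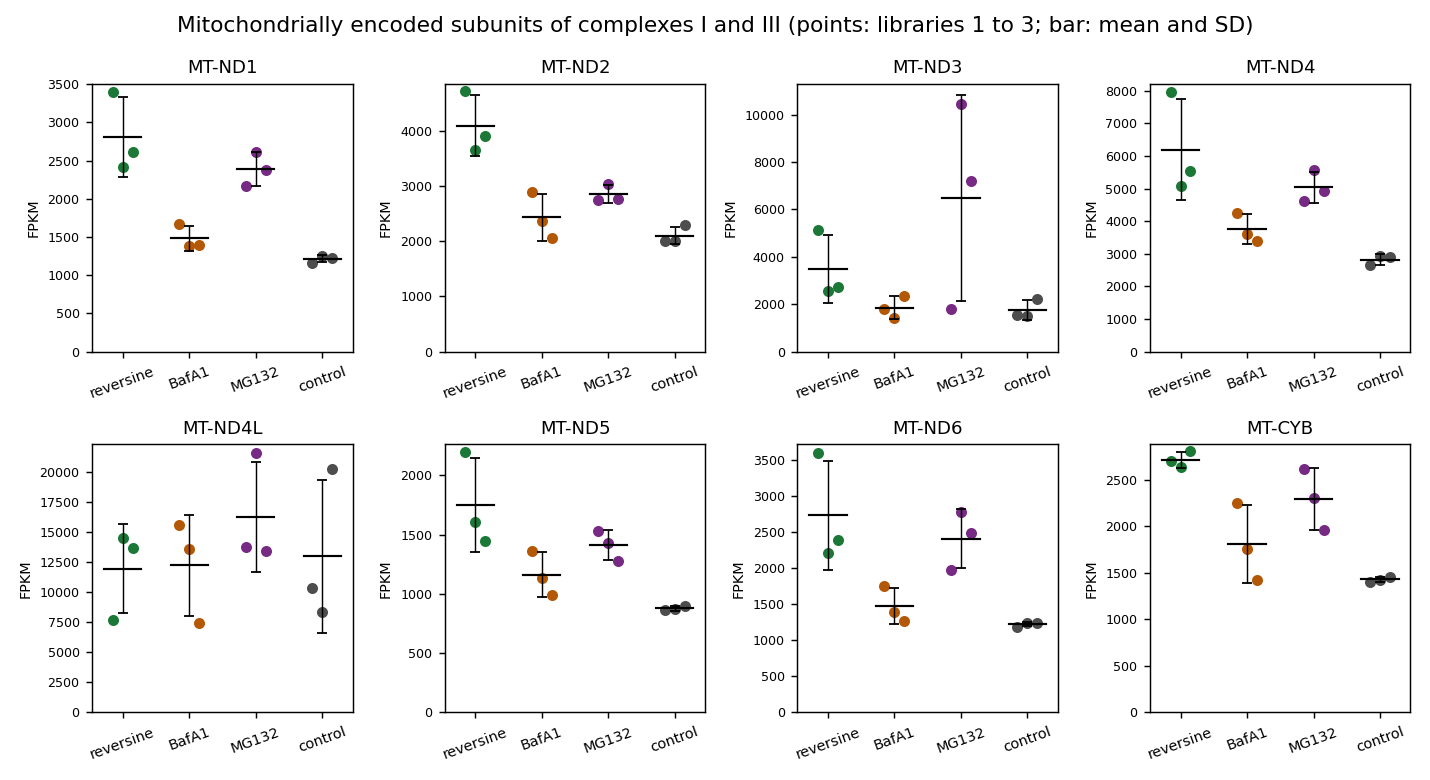
FPKM in each library for the 8 mitochondrially encoded subunits of complexes I and III, with reversine, BafA1, MG132 and control from left to right; points are libraries 1 to 3 and bars the mean and SD of 3. For MT-ND1, MT-ND4, MT-ND5 and MT-ND6 the reversine and MG132 points lie above all 3 controls, and for MT-ND4L all groups overlap.

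Genes that build or feed the complexes were also called mostly after MG132, where the counts again changed with the libraries fitted. Of all tested genes, 7.67% were lower and 7.14% higher after MG132. Of 18 assembly factors of complex I, 5 were lower and 1 higher. DMAC1, which helps to build the distal membrane arm, had 18.4, 14.02 and 11.7 FPKM after MG132 and 80.97, 73.2 and 88.6 in control, a log2 difference of −2.40 (limma adjusted p = 0.00259). NDUFAF7, a methyltransferase needed for the assembly of complex I, had 22.9, 28.3 and 30.8 FPKM after MG132 and 9.44, 12.95 and 8.23 in control, a difference of 1.35 (adjusted p = 0.00372). Both pairs of groups were well apart, MG132 1 included. TMEM70 (−0.78), ACAD9 (−0.73), NDUFAF3 (−1.14) and NDUFAF8 (−0.58) were lower as well. Of 10 assembly factors of complexes II and III, 3 were lower and 2 higher. UQCC3 had 4.90, 4.06 and 3.27 FPKM after MG132 and 18.2, 18.6 and 15.8 in control (−1.88, limma adjusted p = 0.000755), BCS1L, which inserts the Rieske protein, fell by 1.27 on the log2 scale, and SDHAF2, which helps to attach the flavin of SDHA, rose by 0.83. Without the 4 libraries in which values fell with GC content, 4 of the 18 and 3 of the 10 were called, all lower, and with 1 library left out 2 to 12 and 3 to 6.

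Of 16 electron carriers and genes of ubiquinone synthesis, 5 were lower after MG132 and 0 higher, against the same 7.67% and 7.14% of all tested genes, which also stand beside the next 3 lists. COQ2, which joins the ring and the tail of ubiquinone, had 5.88, 5.17 and 7.41 FPKM after reversine, 4.20, 5.64 and 5.01 after MG132, and 12.1, 14.7 and 13.85 in control, with log2 differences of −1.04 and −1.30 (limma adjusted p = 0.0306 and 0.00255). All libraries of both treatments were below all controls, and COQ2 was the only gene of this list called after reversine. Of all tested genes, 1.29% were lower after reversine. The COQ2 call after reversine was lost without any 1 of the controls, without reversine 1 and without reversine 2. It was also lost in other settings, among them a fit of reversine and control alone. Of 15 ATP synthase subunits 5 were lower after MG132, among them all 3 genes of the c ring (ATP5MC1 −1.54, ATP5MC2 −0.69 and ATP5MC3 −0.96), and of 9 subunits of complex IV 2 were lower, COX8A (−1.77) and COX5A (−0.87). Of 12 regulators of respiratory genes, NRF1 and ESRRA were lower after MG132 (−0.63 and −1.32, limma adjusted p = 0.044 and 0.0408). With 1 library left out these counts were 1 to 6 of 16, 3 to 11 of 15, 0 to 4 of 9 and 0 to 5 of 12. Without the 3 libraries that list most rows at 0, limma called 0 genes of these 4 lists and of both lists of assembly factors after MG132, in that fit of 1 MG132 library against 2 controls with 1.78% of all tested genes called.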

How the data were processed

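Per the labels' protocols, polyadenylated RNA of hTERT-RPE1 cells was captured on oligo(dT), and 12 TruSeq libraries (insert size 150 to 350 nt) were read for 50 nt. The deposited table names no unit. Its deposited values were taken here to be FPKM, an inference from columns that do not sum to a common total, and read counts and depth are unknown. Bowtie 1.0.0, RSEM 1.2.6 and the build hg19 are named per the submitters' processing notes.

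Groups followed the labels, with replicate numbers in accession order. Genes reaching 1 FPKM in 3 or more libraries (30712 of 53361 rows) were tested on log2(FPKM + 1) with limma 3.58.1 in R 4.3.3, in 1 fit of 4 groups with a trended prior (8 residual degrees of freedom), with Benjamini-Hochberg adjustment over all tested rows and a threshold of 0.05. Fold differences on this scale understate those of low genes. Transcript length and GC content are medians over a gene's coding transcripts in GENCODE release 29, matched by identifier, none of whose coordinates were used. Promoters are from RefSeq. Genes with per-library values were those called, the 3 highest and 3 lowest in each comparison against control and fixed subunits of each complex, with at most 3 described by smallest adjusted p in other lists where values are given. One member is counted in totals and fits but not reported here by name. Members, lists and rules were chosen with earlier results of these data known. Alternatives were another pseudocount, other filters, median-ratio scaling, GC and length corrections, fits of 2 groups, and libraries left out.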

Additional observations from a re-analysis of the deposited data

How the results depend on the processing

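The 8 genes called after MG132 kept their sign under all 16 alternatives, most of which, such as libraries left out or other filters, could not alter it. The median difference after reversine (−0.06) changed sign with the scaling. The count of called genes after reversine (0) was 1 with the GC and length correction, 2 with that correction fitted on well-expressed genes and 1 without the 4 libraries in which values fell with GC content, where CYC1 was the gene called. With both corrections CYC1 was called as well, lower than control, and NDUFA1, higher, was called with the correction on well-expressed genes. The correction on well-expressed genes was chosen after seeing the data, and the exclusions of 3 or 4 libraries were planned from earlier results of these data. The median difference after reversine was 0.0551 with median-ratio scaling and −0.2258 with the GC and length correction. After MG132 the count (8) was 16 and 24 with the 2 corrections and 0 without MG132 2, MG132 3 and control 3, and the median was −0.3618 with the correction and −0.2066 without the 4 libraries. For reversine against MG132 (0) the counts were 2, 7 and 1 with the corrections and without the 4 libraries. For BafA1 against MG132 (3) the count was 1 without a filter, 5 with a minimum of 5 FPKM, 6 and 14 with the corrections, 0 without the 3 libraries and 1 with only these groups fitted. With 1 library left out, the counts ran from 0 to 0 for reversine, BafA1 and reversine against BafA1, 0 to 27 for MG132, 0 to 14 for reversine against MG132 and 0 to 22 for BafA1 against MG132, and the medians from −0.1198 to 0.0057 for reversine, −0.2104 to −0.0733 for BafA1 and −0.0066 to 0.2013 for MG132. The cause was not tested.

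Over all tested genes, reversine calls numbered 642 (246 higher, 396 lower), but 730 with median-ratio scaling (394 higher, 336 lower), 22 with only 2 groups fitted, 138 without the 3 libraries, and 1078 and 1728 with the corrections. BafA1 calls numbered 81 and ran from 9 to 341. MG132 calls numbered 4549, but 507 without the 3 libraries, 2679 without the 4 libraries, 3082 with 2 groups fitted and 8112 with the correction on well-expressed genes. Of the 43 genes not called after MG132, 31 were called under some alternative. No paired analysis was possible because neither labels nor columns carry replicate numbers. Without read counts the precision of low values is unknown.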
